A study of Rattus norvegicus with 6 samples.

Results

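Fos, Fosl1, Fosl2, Jun, Junb, Jund, Egr1, Ier2, Ier3 and Atf3 encode subunits of the AP-1 transcription factor and other products of immediate early genes. They were chosen by name, as the rows of the deposited count table whose gene symbol is on this list of 10 genes. Of the 18930 rows, 9 carried one of these names, and no row was named Junb, which was not analysed here. All 9 passed the filter on low counts, which left 11870 genes for testing. RNA was sequenced from NRK-52E cells, an established line of epithelial cells from rat kidney with a wild-type genotype per the labels. STZ (streptozotocin) is a DNA-alkylating drug that carries a glucose group. The STZ group held 3 samples of cells kept in 10 mM of STZ for 24 h, and the Control group held 3 samples of cells given vehicle. The study dissolved STZ in dimethyl sulfoxide. The labels do not say whether the samples were separate cultures, so p-values measure the spread between these samples only. That spread was small, with a common coefficient of variation beyond counting noise of 3.25% in the edgeR fit. Small differences can therefore reach low p-values.

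AP-1 is a dimer of proteins with a basic region and a leucine zipper. Jun proteins pair with each other or with Fos proteins, and the choice of partners sets how strongly the dimer binds and activates its sites. Immediate early genes are switched on by growth factors, serum or stress without new protein synthesis, through MAP kinases that act on factors already bound to their promoters. Their RNAs are mostly short-lived, so a single time point shows the level then present and not the first response to a drug.

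The largest rise was that of Fosl1, 5.62-fold, followed by Atf3, 3.29-fold, while Fos fell 2.19-fold and Egr1 1.98-fold in cells kept in STZ. Jun, Jund, Fosl2 and Ier3 rose by less, between 1.22-fold and 1.39-fold. Ier2 had a lower mean in STZ, but its groups overlapped. With edgeR (quasi-likelihood test, p-values adjusted over all genes by the Benjamini-Hochberg method), 6 of the 9 genes were higher and 3 lower at an adjusted p-value under 0.05, a threshold that 50.9% of all genes tested passed. Of all genes tested, 25.9% passed it as higher and 25.1% as lower. With the study's second threshold, an absolute log2 fold change over 1, Fosl1, Atf3 and Fos were differentially expressed, 3 of 9 against 3.37% of all genes tested. The 2 that were higher compare with 2.26% of all genes tested, and the 1 that was lower with 1.11%. In 8 of the 9 genes no STZ sample overlapped the Control samples, against 56.3% of all genes tested. The median log2 fold change over the 9 genes was 0.32, between -1.14 and 2.46, beside a median of -0.01 over all genes tested. The median absolute log2 fold change was 0.47 over the 9 genes and 0.19 over all genes tested.

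**Figure D1:**
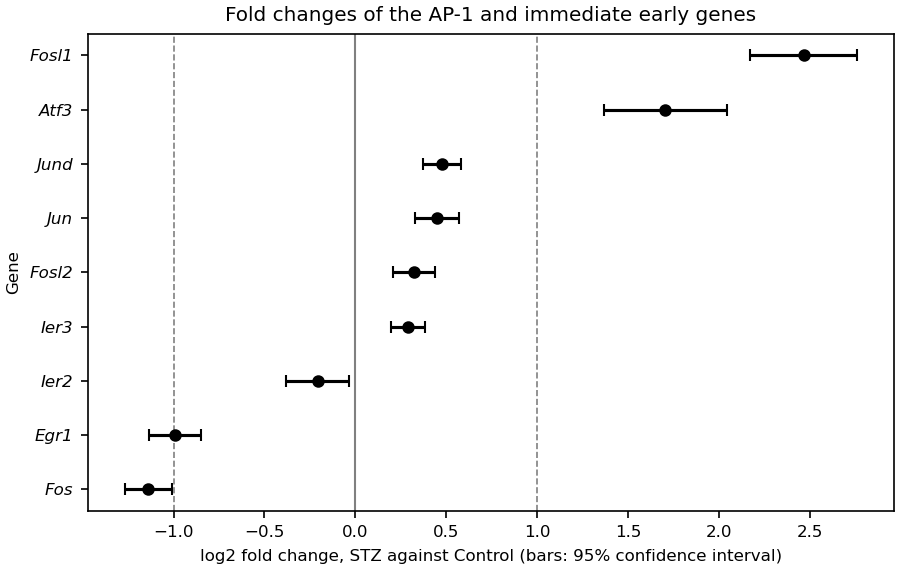
Log2 fold change of each of the 9 genes, STZ against Control, on the horizontal axis, with bars for the 95% confidence interval from the edgeR fit and dashed lines at an absolute log2 fold change of 1. Fosl1 and Atf3 lie to the right of the upper line, Fos lies to the left of the lower line, and the interval of Egr1 spans that line.

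Total counts were between 10430924 and 15191349 per sample, and the libraries needed little rescaling, with TMM factors between 0.988 and 1.02. A normalized count is the read count of a gene rescaled to the mean library, so it compares samples within a gene and not genes of unequal length. Krt8, a keratin of simple epithelia, had 14327 ± 507 normalized counts in Control and 20013 ± 100 in STZ (SD, n = 3), while its partner Krt18 averaged 0.716 and 1.46. Cdh1, the epithelial cadherin, fell from 32.2 ± 6.53 to 20.4 ± 6.90 normalized counts (SD, n = 3; log2 fold change -0.69, adjusted p = 0.03 from edgeR), with overlapping groups, so of the epithelial markers tested 1 was higher and 1 lower. Of the proximal tubule markers, Lrp2, Cubn, Slc34a1 and Slc5a2 averaged under 6 normalized counts in each group, and Aqp1 fell from 163 to 67.7. The summed fibroblast markers Col1a1, Col3a1, Pdgfrb and Thy1 were at 1242 to 1384 normalized counts in Control and at 701 to 830 in STZ. All 3 that were tested were lower at an adjusted p-value under 0.05. Of all genes tested, 25.9% were higher and 25.1% lower. Col3a1 fell most, from a mean of 672 to 265, while the groups of Col1a1 overlapped (means of 378 and 316). Summed markers of leukocytes (13.6 to 27.0 in Control, 24.9 to 33.5 in STZ) and of endothelium (5.67 to 9.41 and 9.97 to 14.1) were low. The part of these shifts in the results on the AP-1 genes was not tested. In such bulk RNA, fewer cells of a type and less RNA per cell cannot be told apart.

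Among the Fos proteins, Fos has a strong activation domain and is the classical immediate early partner of Jun. Fos had 821, 894 and 859 normalized counts in the Control samples and 411, 416 and 347 in the STZ samples. The lowest Control sample stood at almost double the highest STZ sample. The means were 858 ± 36.5 and 391 ± 38.4 (SD, n = 3), which gave a log2 fold change of -1.14 (SE, the standard error, 0.06; adjusted p = 6.1e-19). Its 95% confidence interval ran from -1.27 to -1.01, so the fold-change threshold lay just outside it, and glmTreat, which tests against that threshold and was added after seeing the data, called Fosl1 and Atf3 but not Fos. Fos ranked 290th of 11870 genes by absolute log2 fold change.

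Fosl1 encodes Fra-1, a Fos-related protein without the strong activation domain of Fos, whose own gene is a known target of AP-1. It had 27.0, 46.5 and 50.6 normalized counts in Control and 209, 248 and 241 in STZ. Control replicate 1, with 23 reads, was the lowest of all samples, and each STZ sample was more than 4 times as high as any Control sample. The means were 41.4 ± 12.6 and 233 ± 21.2 (SD, n = 3), a log2 fold change of 2.46 (SE 0.15, adjusted p = 2.7e-18). This was the 25th largest absolute log2 fold change of the 11870.

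Fosl2, which encodes the related protein Fra-2, moved far less. It had 628, 592 and 570.0 normalized counts in Control and 713, 779 and 746 in STZ. The groups did not overlap, and the gap between the highest Control and the lowest STZ sample was larger than the SD of either group, 29.2 in Control and 33.3 in STZ. The log2 fold change was 0.32 (SE 0.06, adjusted p = 1.1e-05).

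**Figure D2:**
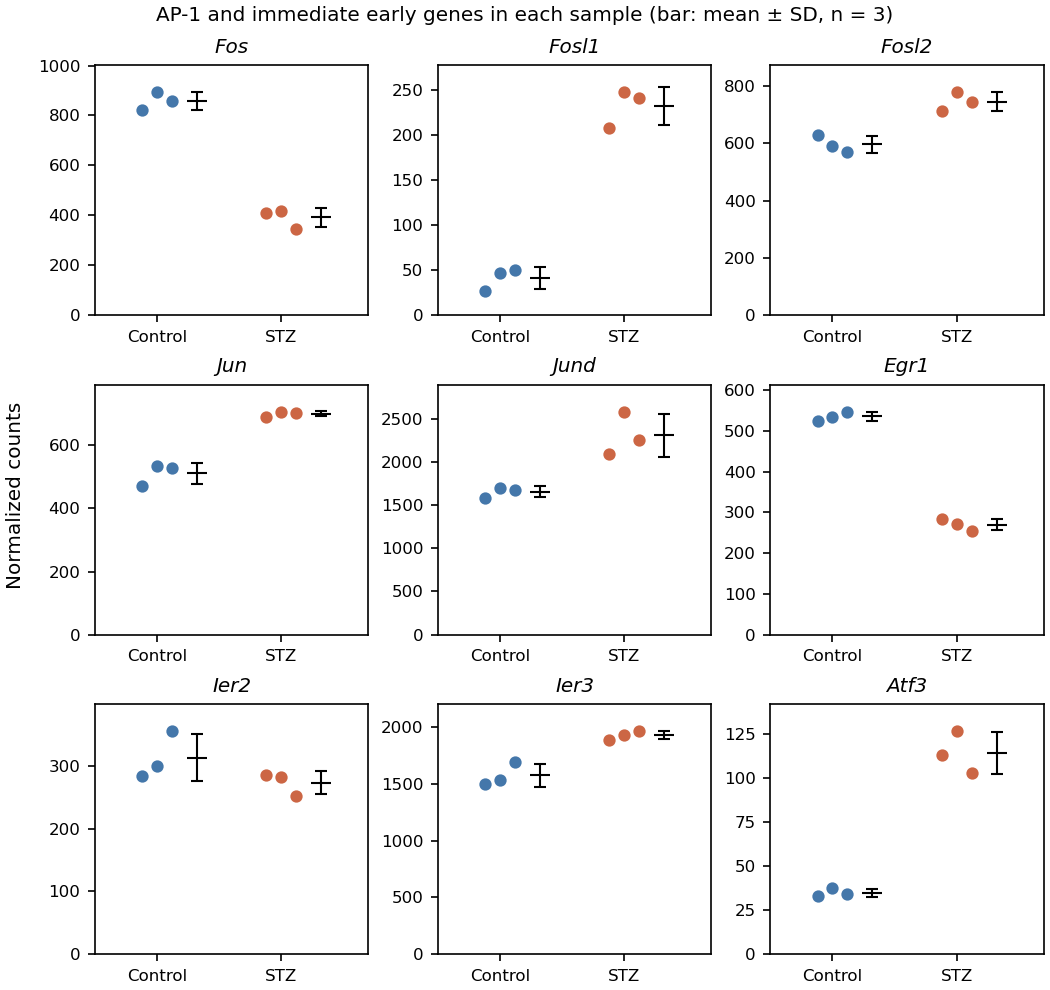
Normalized counts (vertical axes, each from 0) of the 9 genes in the 3 Control and 3 STZ samples, with 1 panel per gene, 1 point per sample and a bar for the mean ± SD beside each group. The groups are apart in every panel except that of Ier2, where STZ samples at 287 and 283 lie beside Control samples at 285 and 299.

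The makeup of the Fos family was also described within each library, which needs no scaling between libraries. The shares restate the same reads, so their directions follow from the fall of Fos and the rises of Fosl1 and Fosl2 and are no further evidence of them. Of the reads of Fos, Fosl1 and Fosl2 together, Fos held 55.6%, 58.3% and 58.1% in the Control samples and 30.8%, 28.8% and 26.0% in the STZ samples. Fos thus held the largest of the 3 shares in every Control sample. In every STZ sample its share lay below that of Fosl2 and above that of Fosl1. The share of Fosl1 was 2.76% ± 0.827 in Control and 17.0% ± 1.23 in STZ (SD, n = 3), and that of Fosl2 39.9% ± 2.29 and 54.5% ± 1.27. For each of the 3 genes the groups did not overlap, and the exact two-sided permutation p was 0.1, the smallest that 3 samples against 3 can give. Between 17.0 and 30.3 reads of Fos were counted for each read of Fosl1 in the Control samples, and between 1.44 and 1.97 in the STZ samples. These are shares of reads, not of molecules, since the genes differ in length, and Fosb, with 23 to 35 reads a sample, was not included. Summed, the 3 genes had 1496 ± 31.7 normalized counts in Control and 1369.9 ± 63.8 in STZ (SD, n = 3), and the lowest Control sum, 1476, was above the highest STZ sum, 1444 (exact permutation p = 0.1).

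Jun encodes c-Jun, the AP-1 subunit activated by JNK, and Jund encodes JunD, a subunit that many resting cells express and that can restrain growth. Jun had 472, 533 and 528 normalized counts in Control and 690.0, 707 and 702 in STZ. All STZ samples lay within a narrow range above the Control samples. The log2 fold change was 0.45 (SE 0.06, adjusted p = 3.4e-08). Jund had 1585, 1701 and 1678 normalized counts in Control and 2085, 2583 and 2251 in STZ. Its STZ samples were the more spread, with an SD of 253 against 61.5 in Control, and still lay above every Control sample. The log2 fold change was 0.47 (SE 0.05, adjusted p = 2e-10).

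The balance of Jun and Jund was compared in the same way. Jun held 22.9%, 23.9% and 23.9% of the reads of these 2 genes in the Control samples and 24.9%, 21.5% and 23.8% in the STZ samples. The ranges overlapped, and the shares differed by -0.20 percentage points, less than the SD of either group (0.563 in Control, 1.73 in STZ; exact two-sided permutation p = 0.8). With 3 samples a group this does not show that the ratio was equal. The sum of both genes was 2166 ± 95.5 normalized counts in Control and 3006 ± 261 in STZ (SD, n = 3), and the groups did not overlap (exact permutation p = 0.1, the smallest possible).

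**Figure D3:**
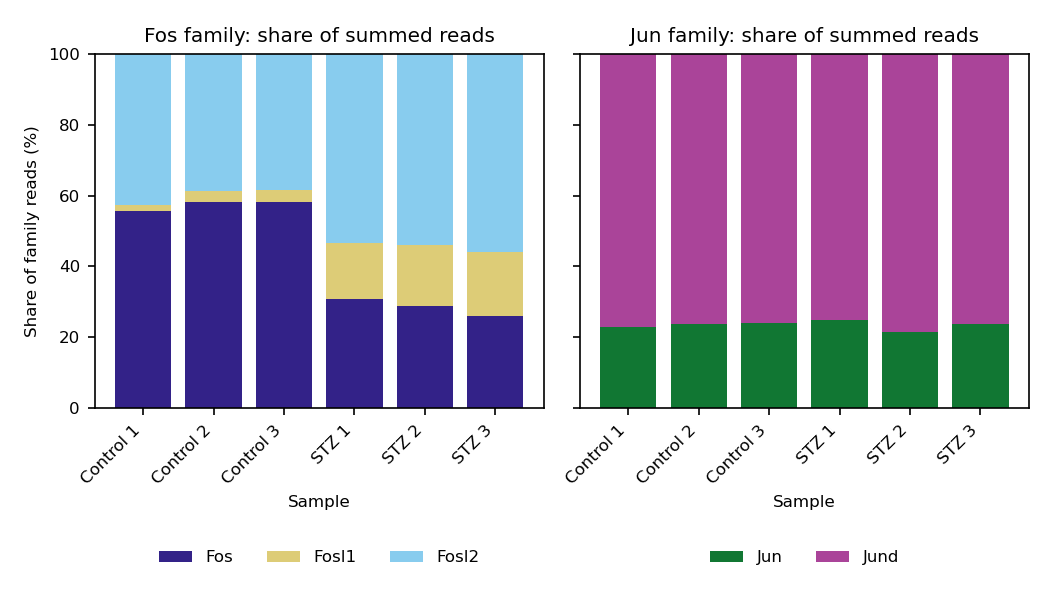
Share of the summed reads of each family (vertical axis, percent) held by Fos, Fosl1 and Fosl2 (left) and by Jun and Jund (right) in each of the 6 samples. The Fos segment drops from 55.6% or more in Control to 30.8% or less in STZ while the Jun segment stays between 21.5% and 24.9%.

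Atf3 encodes a stress-induced protein of the same structural class that dimerizes with Jun proteins and often represses its targets. It is also a known target of p53 and of ATF4. Atf3 had 32.9, 37.4 and 34.0 normalized counts in Control and 113, 127 and 103 in STZ. The Control samples were close together, and the lowest STZ sample was more than double the highest Control sample. The means were 34.8 ± 2.35 and 114 ± 11.8 (SD, n = 3), with a log2 fold change of 1.71 (SE 0.17, adjusted p = 1.6e-11), the 92nd largest of 11870 in absolute size. In the GRCr8 annotation the span of Atf3 overlaps that of Garin4, a gene with no row of that name in the table. Whether counting used strand is not given in the sources used here, so reads of this pair may not be fully separated. The spans of the other 9 genes overlapped no annotated gene.

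Egr1 encodes a zinc-finger transcription factor that is induced through serum response elements by the ERK pathway. Egr1 had 523, 535 and 548 normalized counts in Control and 283, 271 and 256 in STZ. Both groups were tight, with SDs of 12.2 and 13.7, and the groups lay far apart. The log2 fold change was -0.99 (SE 0.07, adjusted p = 1.3e-15), just short of the fold-change threshold, with a 95% confidence interval from -1.13 to -0.85. Egr1 passed both thresholds with library size only (-1.03), with upper quartile scaling (-1.01), without Control replicate 1 (-1.01) or without STZ replicate 1 (-1.03). Fos and Egr1 fell by similar factors, Fos by slightly more. The reads of Fos per read of Egr1 were 1.60 ± 0.0583 in Control and 1.45 ± 0.0889 in STZ (SD, n = 3; exact permutation p = 0.1, the smallest possible). Each STZ sample, at 1.36 to 1.54, lay below each Control sample, at 1.57 to 1.67.

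Ier2 and Ier3 are small immediate early genes without sequence kinship to each other. Ier2 encodes a short nuclear protein, and Ier3 a regulator of cell survival that NF-kB and p53 are known to induce. Ier2 had 285, 299 and 356 normalized counts in Control and 287, 283 and 252 in STZ, so the groups overlapped. Its log2 fold change of -0.21 (SE 0.09) had an adjusted p of 0.042 from edgeR's quasi-likelihood test, and between 0.012 and 0.40 over the alternatives. Control replicate 3 was the highest sample, and without it the log2 fold change was -0.10 (adjusted p = 0.4). It was also not past the threshold without STZ replicate 2 (adjusted p = 0.053), without STZ replicate 3 (adjusted p = 0.23) or by DESeq2's Wald test (adjusted p = 0.14). Ier3 had 1499, 1537 and 1689.6 normalized counts in Control and 1889.5, 1930.1 and 1964 in STZ. The STZ samples were close together and above all Control samples. Its log2 fold change was 0.29 (SE 0.05, adjusted p = 8.5e-07).

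Promoter sequence was available for 6 of the 10 genes, Fosl1, Fosl2, Junb, Jund, Egr1 and Ier2, from RefSeq on the GRCr8 assembly, another build than the Rnor6 of the counts. The 250 bases before each start were searched on both strands for the AP-1 site TGACTCA, the CRE-type site TGACGTCA, which ATF proteins and their dimers with Jun bind, and the CArG box, the core of the serum response element. TGACTCA was in none of the 6 and in 4.05% of all 33469 promoters. TGACGTCA was in those of Jund and Ier2 and in 1.59% of all promoters, beginning 221 and 66 bases before the start. The CArG box was in that of Egr1, as 2 copies that begin 105 and 83 bases before the start, and in 1.5% of all promoters. Shown are 100 bases of these promoters, with matches in capitals, together with the 100 bases next to the start of Fosl1, the gene with the largest rise, which hold no match. They lie at chr18:26736928-26737027 on the plus strand for Egr1, chr16:18769922-18770021 on the minus strand for Jund, chr19:40399273-40399372 on the plus strand for Ier2 and chr1:212183785-212183884 on the plus strand for Fosl1.
Egr1: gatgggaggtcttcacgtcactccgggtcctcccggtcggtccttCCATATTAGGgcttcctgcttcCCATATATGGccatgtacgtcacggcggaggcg
Jund: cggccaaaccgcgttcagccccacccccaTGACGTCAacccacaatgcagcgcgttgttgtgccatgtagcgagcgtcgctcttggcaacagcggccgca
Ier2: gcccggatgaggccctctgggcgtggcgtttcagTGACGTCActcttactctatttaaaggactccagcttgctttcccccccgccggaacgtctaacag
Fosl1: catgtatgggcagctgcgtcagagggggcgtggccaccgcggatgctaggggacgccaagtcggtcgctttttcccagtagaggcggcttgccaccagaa
Jund, with a TGACGTCA, rose, while Ier2, with the same letters nearer its start, had overlapping groups. A match is a run of letters and not a shown site of binding. Variant letters and sites outside the 250 bases were not searched, so no match does not show that a gene lacks such sites.

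**Figure D4:**
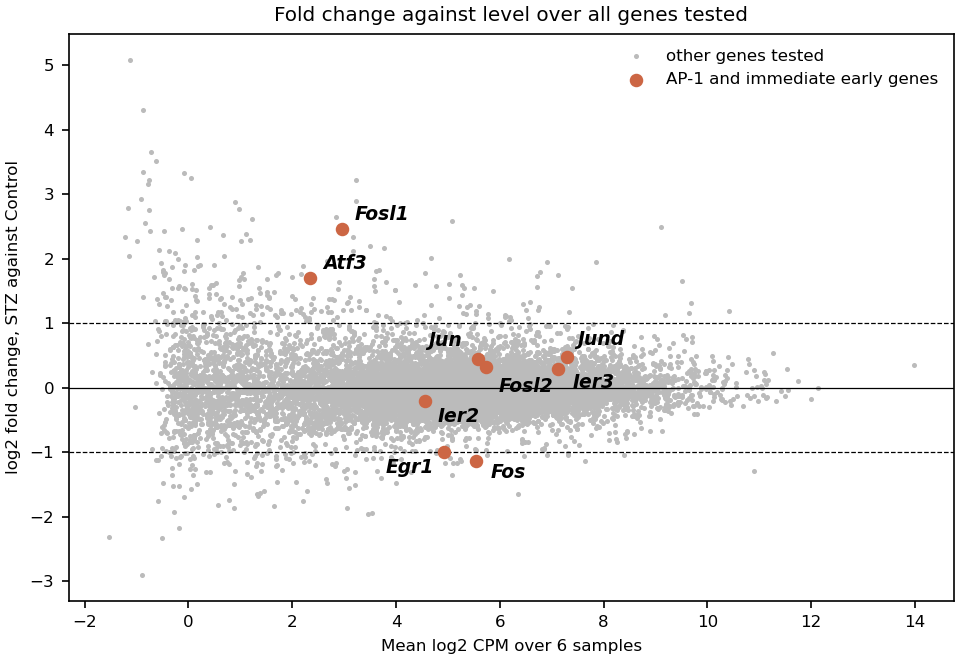
Log2 fold change, STZ against Control (vertical axis), against the mean log2 CPM over the 6 samples (horizontal axis) for all 11870 genes tested in grey and the 9 AP-1 and immediate early genes in orange, with dashed lines at an absolute log2 fold change of 1. Fosl1 (2.46), Atf3 (1.71) and Fos (-1.14) lie beyond the dashed lines and Egr1 (-0.99) lies on the lower one.

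Fos had the smallest p of the 9 genes. The genes whose values over the 6 samples lay closest to those of Fos, among 9698 other named genes with a mean of at least 50 normalized counts, were H1f0, Marcks and Dnai4. H1f0 encodes a linker histone, Marcks an actin-binding substrate of protein kinase C and Dnai4 a dynein intermediate chain of cilia. On the log2 CPM scale relative to the Control mean, they differed from Fos by a root mean square of 0.064, 0.072 and 0.075. Their log2 fold changes were -1.14, -1.09 and -1.07. The genes were chosen on these same values, so fold changes near that of Fos follow from the choice.

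A list of 7 genes for other proteins that form dimers with Fos or Jun was also examined. Of these, Batf, Batf2 and Batf3 had too few reads to be tested. Of the 4 tested, 0 were higher and 1 lower at an adjusted p-value under 0.05. None of the 4 was higher at an unadjusted p under 0.05 either, and DESeq2 and limma-voom also called 0 higher. Of all genes tested, 25.9% were higher and 25.1% lower, and 4 genes are too few to set against these shares. Atf7, which encodes a relative of ATF2, fell by 0.28 on the log2 scale (SE 0.07, adjusted p = 6e-04). Fosb, the fourth member of the Fos family, had 28.9 ± 6.67 normalized counts in Control and 29.5 ± 7.42 in STZ (SD, n = 3), and its log2 fold change of 0.01 had a SE of 0.25. That of Jdp2, a repressor that pairs with Jun, was 0.02 (SE 0.11). That of Atf2, a Jun partner activated by stress kinases, was -0.10 (SE 0.05, adjusted p = 0.091). Atf2 passed the threshold as lower under library size only and upper quartile scaling. The median of the 4 genes was -0.04.

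Of 24 further immediate early genes, 22 had a row and all of these were tested. At an adjusted p-value under 0.05, 10 were higher and 3 lower, and 9 did not pass, with a median log2 fold change of 0.15. In either direction, 13 of 22 were called, near the 50.9% of all genes tested. The split of 10 higher and 3 lower was less even than the 25.9% higher and 25.1% lower of all genes tested. This difference in split was not tested. Btg2, an antiproliferative gene that is also a p53 target, had the smallest p and rose from 948 ± 7.20 to 3200 ± 93.4 normalized counts (SD, n = 3), a log2 fold change of 1.75. Ier5, a regulator of heat shock factor, rose by 0.99 (SE 0.06, adjusted p = 1.4e-18) and Klf4, a growth-arrest transcription factor, by 0.89 (SE 0.11, adjusted p = 1.9e-09) on the log2 scale. Zfp36l1, which promotes decay of AU-rich mRNAs, fell by 0.37 (SE 0.05, adjusted p = 1e-08). Egr2 and Egr3, named after their values were seen as the relatives of Egr1, had log2 fold changes of 0.09 (SE 0.17) and -0.26 (SE 0.35). Egr3 had 14.5 and 12.1 normalized counts on average, and neither gene passed the test.

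Of 22 kinases and transcription factors upstream of immediate early genes, 20 were tested. At an adjusted p-value under 0.05, 4 were higher, 6 lower and 10 did not pass, with a median log2 fold change of -0.07. With 10 of 20 called, this was near the 50.9% of all genes tested (25.9% higher, 25.1% lower), and the count shows nothing particular to these genes. Map2k3, a kinase that activates p38, had the smallest p and rose by 0.34 (SE 0.04, adjusted p = 1.1e-08). Map2k6, which also activates p38, fell from 23.0 ± 4.50 to 4.86 ± 1.55 normalized counts (SD, n = 3), a log2 fold change of -2.18 (SE 0.38, adjusted p = 5.8e-06). It passed the filter through its Control samples, with 18 to 24 reads against 3 to 7 in STZ, and with at least 10 counts in every sample it was not tested and 5 upstream genes were lower. Mapk8, which encodes the kinase JNK1, fell by 0.32 (SE 0.06, adjusted p = 2.2e-05). Map2k4, which encodes a kinase of JNK, rose by 0.24 (SE 0.05, adjusted p = 2.5e-04). These are RNA levels, and kinase activity was not measured in these libraries. With library size only, 4 of the 20 were higher and 9 lower.

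Of 19 genes known from textbooks for AP-1 sites, 17 had a row and 11 passed the filter. Mmp3 and Mmp10 had no row, and Mmp9, Mmp13, Plau, Il6, Mt2A and Il11 had too few reads to be tested. At an adjusted p-value under 0.05, 10 of the 11 were higher and 0 lower, with a median log2 fold change of 0.65. Of all genes tested, 25.9% were higher and 25.1% lower, with a median of -0.01. The list was chosen with earlier results of these data known, so this count is not independent support. At an unadjusted p under 0.05, 0 were lower as well, and DESeq2 and limma-voom called 9 and 10 higher and 0 lower. Hmox1, the heme-degrading enzyme that Nrf2 also induces, rose from 159 ± 10.2 to 546 ± 29.8 normalized counts (SD, n = 3), a log2 fold change of 1.78 (SE 0.08). Cd44, a hyaluronan receptor, rose by 1.11 (SE 0.06). Hbegf, a ligand of the EGF receptor, rose by 0.97 (SE 0.05). The adjusted p-values of these 3 genes were between 1.5e-19 and 4.7e-22. Ccl2, a chemokine named after its values were seen, went from 2.20 ± 1.22 to 21.0 ± 4.77 normalized counts (SD, n = 3). Its log2 fold change of 3.22 (SE 0.48) was the largest of the list. Ccl2 passed the filter through its STZ samples, with 15 to 31 reads against 1 to 3 in Control. With at least 10 counts in every sample it was not tested, and 9 genes of the list were higher. Ccnd1, the cyclin D1 gene, was the tested gene that did not pass, with a log2 fold change of 0.04 (SE 0.04). Each of these genes answers to other regulators too, and binding of AP-1 was not measured.

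**Figure D5:**
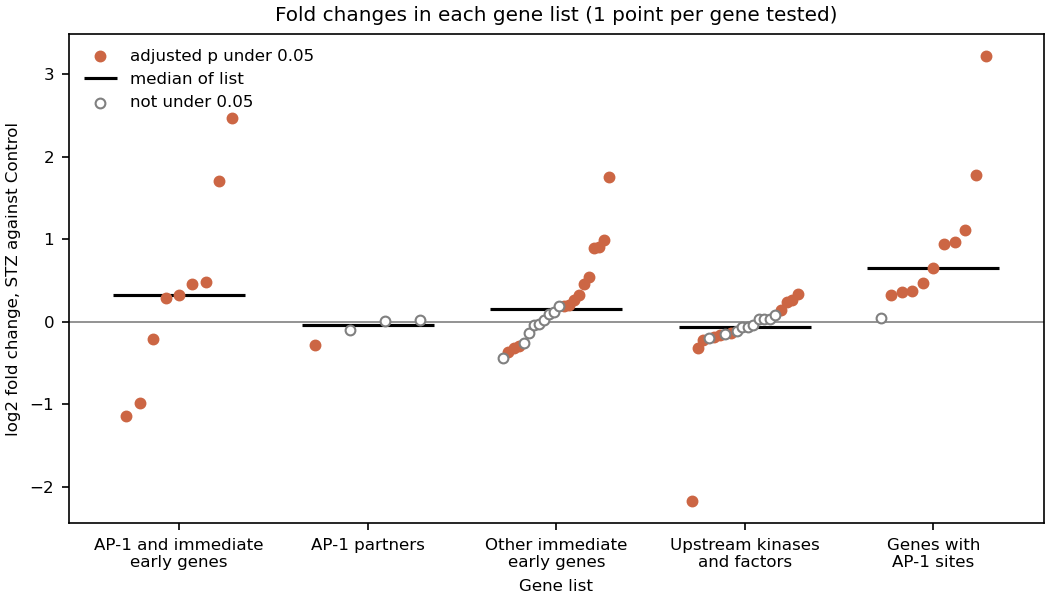
Log2 fold change, STZ against Control (vertical axis), of each gene tested in 5 lists, sorted within each list, with filled points for an adjusted p under 0.05 and lines for list medians. The 9 AP-1 and immediate early genes spread from -1.14 to 2.46 around a median of 0.32, the 11 genes with AP-1 sites have a median of 0.65, and the AP-1 partners and upstream genes have medians of -0.04 and -0.07.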

How the data were processed

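NRK-52E cells treated with STZ (3 samples) or vehicle (3 samples) were sequenced from stranded mRNA libraries. The authors aligned single-end reads against Rnor6, a rat assembly, using STAR 2.7.10a, and deposited raw counts of uniquely mapped reads per gene from featureCounts. The 6 columns were assigned by their labels. From these counts, edgeR 4.0.16 (R 4.3.3) gave the TMM scaling, the filterByExpr filter and the quasi-likelihood test, adjusted by Benjamini-Hochberg. Each standard error (SE) is the size of the log2 fold change over the root of its F statistic. Alternatives were 2 filters, 3 scalings, DESeq2 1.42.0, limma-voom (limma 3.58.1), a replicate block, each sample left out and, chosen after seeing the data, glmTreat. On simulated counts for 11789 genes, 185 of 199 genes changed 2-fold were recovered and 12 unchanged genes were called. The simulation gave every gene the same dispersion and changed few genes, all by exactly 2-fold. The real data differ in both, so these rates need not hold for them.

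Named genes were the 10 members, the AP-1 partners, the 4 smallest p-values in each other list, and the 3 genes closest to the member with the smallest p. The values of 1 gene named by this rule are not reported here, though it enters the counts. The members and lists were chosen with earlier results of these data known. Totals of 10430924 to 15191349 reads per sample limit the precision for genes with few reads.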

Additional observations from a re-analysis of the deposited data

How the results depend on the processing

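The numbers of the 9 genes called higher (6) and lower (2 to 3), and of those past both thresholds (2 to 4), stayed within 1.5 times of the values reported under each alternative run. The 2 came with glmTreat, which kept Fosl1 and Atf3. Of 126 refits of single genes, 122 kept direction and call, and the other 4 were of Ier2. AP-1 partners called lower numbered 2 in place of 1 with library size only and with upper quartile; these scalings lower all log2 fold changes slightly. Over all genes, 400 passed both thresholds. glmTreat, which tests against the fold threshold itself, gave 112, and the filter of 10 counts in every sample gave 249 from fewer genes. With no filter 585 of 18930 genes passed, and DESeq2's Wald test gave 365. Leaving out one sample gave 403 to 462. Scaling shifted the median log2 fold change of all genes to -0.04 at most.

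Fold changes with one sample left out ran from 2.25 to 2.65 for Fosl1 and from -1.18 to -1.05 for Fos. The share of Jun in its family differed by -0.94 to 0.75 percentage points, and that of Jund by -0.75 to 0.94, with one sample left out; without STZ replicate 2 the sign turned, to 0.75 and -0.75. That sample had the lowest share of Jun.

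Control and STZ samples share replicate numbers. Deviations from the group means correlated at 0.033, -0.036 and 0.11 for same-numbered samples across 10348 genes. The 0.11, for the samples numbered 3, was the highest of all pairs, but not every sample correlated best with its own. With 3 samples a group this cannot show whether samples were paired, and the labels do not say. With the replicate block, 6 genes were higher, 3 lower and 3 past both thresholds, and no call among the 9 genes changed.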
